A study of Mus musculus with 30 samples.

Results

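The genes of glucose transport and glycolysis were followed through cold exposure in inguinal white fat (iWAT) and brown fat (BAT) of mice. The list held 34 genes, all of which were found by symbol among the 21652 genes of the deposited count tables. Members were listed by their place in the pathway, with earlier results of these data known. They comprised 5 sugar transporters, 3 hexokinases, 8 enzymes of upper glycolysis, 4 bifunctional regulators of phosphofructokinase (the PFKFB family), 8 enzymes of lower glycolysis, 4 genes of lactate handling and 2 glycerol 3-phosphate dehydrogenases. Bulk polyadenylated RNA had been sequenced from male C57BL/6J mice aged 7 to 8 weeks, housed 5 to a cage. For each tissue, 5 libraries came from mice kept at 22 °C, 5 from mice moved to 6 °C for 6 h and 5 from mice moved there for 24 h. This made 30 libraries in 6 groups. The sample labels give the control temperature as 22 °C, whereas the notes on housing state 24 ± 2 °C for the room. No group carried a transgene, deletion or drug according to the labels. The labels do not say whether the 5 libraries of a group came from 5 separate mice, so p-values measure the spread between these libraries, which may be partly technical.

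In glycolysis, glucose enters the cell through facilitative transporters, is trapped by phosphorylation by hexokinase, is split into triose phosphates and is oxidised to pyruvate. Pyruvate is then imported into mitochondria or reduced to lactate, which leaves or enters the cell through monocarboxylate transporters. Fat cells use the insulin-regulated transporter GLUT4 (Slc2a4), and they draw glycerol 3-phosphate, the backbone of triglyceride, from the triose phosphate pool. Brown fat and the beige fat cells of iWAT burn fuel for heat in the cold and are known to take up large amounts of glucose then.

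Library totals were 25.3 to 41 M assigned counts (M, 1e6), and the 34 genes took 0.942% to 1.95% of the counts in iWAT and 2.57% to 3.62% in BAT. Levels are given as CPM, counts scaled to a library size of 1e6 after TMM factors over all 30 libraries, or as the deposited FPKM where genes of different length are compared. For several members the FPKM imply a gene length well above that of the longest annotated coding transcript, and for others one near it. Levels and shares by FPKM therefore depend on those lengths. Summed CPM of 14 skeletal muscle markers was 4277 in 22 °C replicate 2 of iWAT and 40.9 to 95.7 in the other 14 iWAT libraries. In BAT it ranged from 376 to 10599 at 22 °C, from 91 to 1934 after 6 h and from 54.7 to 5538 after 24 h. In BAT the median sum was 2575, 508 and 1052 CPM at 22 °C, 6 h and 24 h, in overlapping ranges, and in iWAT 1 library stood apart. Sums over 1000 CPM were found in 9 libraries, called muscle-rich here: that replicate of iWAT and, in BAT, 22 °C replicates 1, 3, 4 and 5, 6 h replicate 2 and 24 h replicates 3, 4 and 5. Summed CPM of 7 brown fat markers in iWAT was 215, 429, 1141, 1392 and 194 at 22 °C, 1098, 2475, 759, 5465 and 5757 after 6 h and 4893, 3320, 3207, 4048 and 5305 after 24 h. In BAT the same sum was 13683 to 17138, 18790 to 26902 and 19309 to 23204. The 7 adipocyte markers summed to 27096 to 35494, 37471 to 42579 and 35653 to 41121 CPM in iWAT at 22 °C, 6 h and 24 h, and to 24069 to 28308, 29447 to 35234 and 32640 to 38165 CPM in BAT. The cold and 22 °C libraries did not overlap in this sum in either depot. The sum weights the most abundant of the markers, and single adipocyte markers went both ways in BAT, as given below. The 5 epithelial markers were at or near 0. In bulk RNA, fewer cells of a type and less RNA per cell cannot be told apart. The comparisons of 6 h and 24 h with 22 °C in a tissue share the 22 °C libraries.

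Counts were compared with edgeR's quasi-likelihood test, and a gene was called at a Benjamini-Hochberg adjusted p under 0.05 over all genes tested. Errors of log2 fold changes are approximate standard errors, and errors of levels are SD with n = 5. In iWAT after 6 h, 15 of the 33 members tested rose and 2 fell, where 23% of all 13689 genes tested were called (12.9% higher, 10.1% lower). The members' median log2 fold change was 0.56, against -0.03 over all genes tested. After 24 h in iWAT 14 rose and 2 fell, with a median of 0.40 where that of all genes was -0.04 and 23% of genes were called (12.8% higher, 10.1% lower). In BAT after 6 h, 6 of 34 members rose and 4 fell where 22.7% of genes were called (12.5% higher, 10.2% lower), and the median was 0.07 against -0.01 for all genes. After 24 h in BAT 13 rose and 3 fell where 23.1% of genes were called (12.8% higher, 10.4% lower), and the median was 0.21 against -0.01. Between 24 h and 6 h no member was called in iWAT, where 0.00731% of genes were (1 gene, with 1351 genes at an unadjusted p under 0.05, and 122 genes called by DESeq2, also with no member). In BAT, 5 members were higher and 5 lower at 24 h than at 6 h where 13% of genes were called (6.6% higher, 6.45% lower). Without 22 °C replicate 2 of iWAT, the library rich in muscle RNA, 10 members were called at 6 h and 10 at 24 h in iWAT, all higher. Calls over all genes fell too, from 3148 to 1669 at 6 h and from 3145 to 2153 at 24 h. Without 6 h replicate 4 or 5 of iWAT, 10 and 11 members were called at 6 h, and without 22 °C replicate 5 of BAT 6 were called at 6 h in BAT. Over all genes, leaving out each library in turn gave 1521 to 4035 calls at 6 h in iWAT and 2274 to 3215 at 6 h in BAT. In BAT, leaving out the muscle-rich libraries leaves 1 library at 22 °C, assumed to vary like the other groups, and 0 members were then called at 6 h and 1 at 24 h, where 123 and 153 genes were. The 10 and 16 members called with all libraries kept their direction. With the muscle markers as a covariate, 7 members were called at 6 h and 13 at 24 h in BAT. Over all genes, 2144 and 2435 were then called, in place of 2967 and 3030. By limma on log2 of FPKM plus 1, a scaling that moves the median of all genes in iWAT by -0.15 at 6 h and -0.12 at 24 h, 9 members were called higher and 1 lower at 6 h and 12 higher and 0 lower at 24 h. The same scaling called 575 genes higher and 4324 lower at 6 h, where the counts gave 1769 higher and 1379 lower. Where leaving out 1 library ends a call, each such library is named, and each was left out alone.

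**Figure D1:**
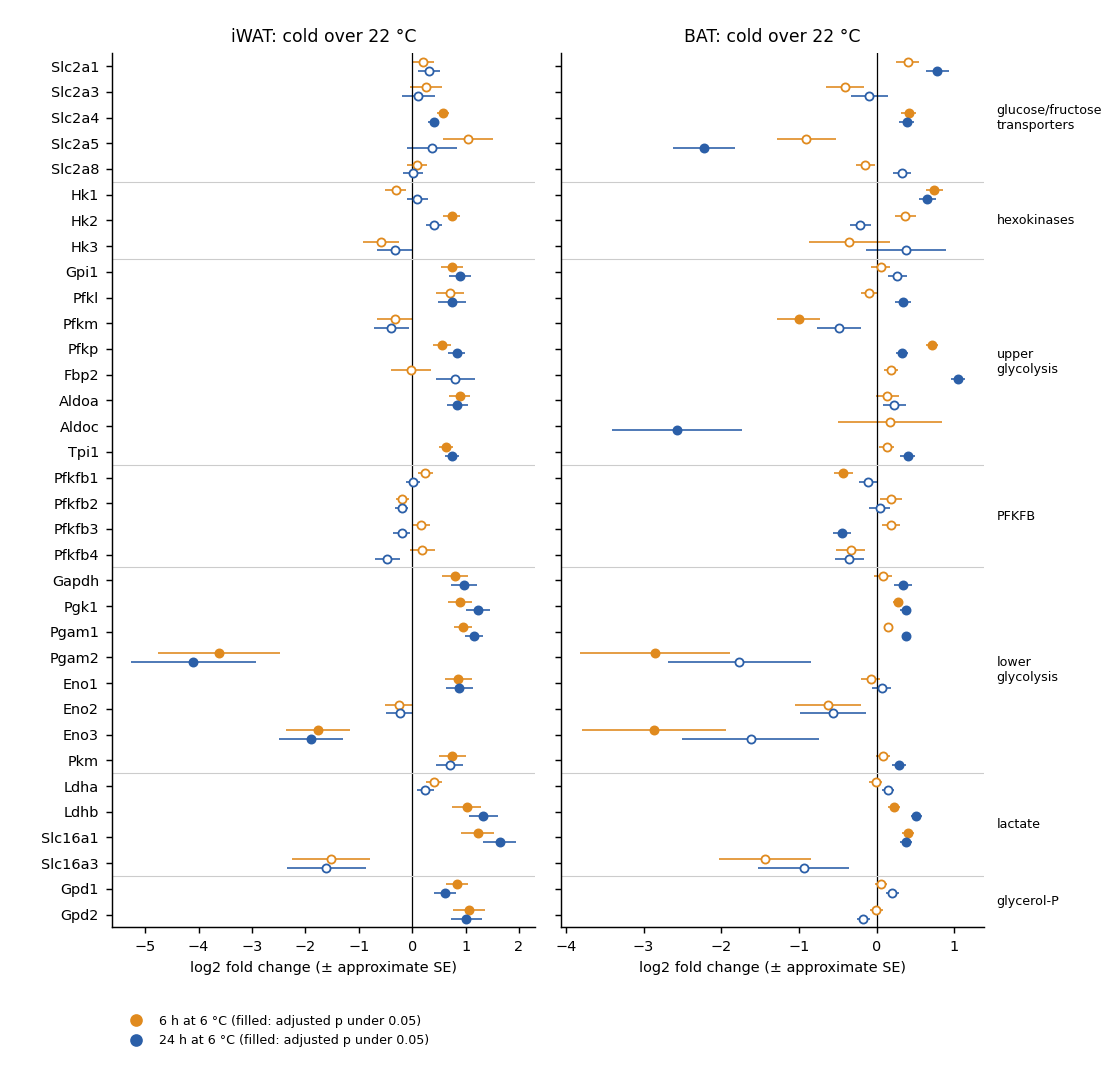
Log2 fold change (± approximate SE) of each of the 34 genes after 6 h (orange) and 24 h (blue) at 6 °C over 22 °C, iWAT on the left and BAT on the right, grouped by role. Filled points were called at an adjusted p under 0.05; most points of iWAT lie right of 0 in the upper, lower, lactate and glycerol phosphate groups, and those of BAT lie nearer to 0.

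Slc2a4, Pfkp, Pgk1, Ldhb and Slc16a1 were the 5 members higher in all 4 comparisons of cold with 22 °C. The windows around the RefSeq start sites (GRCm38.p6, 250 bases before to 50 after the start) are printed for the 4 of them with 1 window in the table and for Fbp2, the member with the smallest adjusted p in BAT at 24 h. The deposited counts were made on GRCm39, so these coordinates locate the windows in the older assembly only. Capitals mark the 5-letter core ACGTG of the hypoxia and E-box type elements, or its reverse complement CACGT. The core occurred 2 times in the Pgk1 window and in neither of the windows of Pfkp and Ldhb. In Slc16a1 it occurred 3 times and in Fbp2 2 times, counting both strands of the palindrome CACGTG that each of these windows holds.
Pfkp, chr13:6648722-6649021, minus strand: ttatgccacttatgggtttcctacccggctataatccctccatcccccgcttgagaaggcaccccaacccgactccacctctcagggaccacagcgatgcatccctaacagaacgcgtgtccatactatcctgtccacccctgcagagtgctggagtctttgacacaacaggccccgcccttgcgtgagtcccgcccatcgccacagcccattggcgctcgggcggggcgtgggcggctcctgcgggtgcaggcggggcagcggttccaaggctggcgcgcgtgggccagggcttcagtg
Pgk1, chrX:106186850-106187149, plus strand: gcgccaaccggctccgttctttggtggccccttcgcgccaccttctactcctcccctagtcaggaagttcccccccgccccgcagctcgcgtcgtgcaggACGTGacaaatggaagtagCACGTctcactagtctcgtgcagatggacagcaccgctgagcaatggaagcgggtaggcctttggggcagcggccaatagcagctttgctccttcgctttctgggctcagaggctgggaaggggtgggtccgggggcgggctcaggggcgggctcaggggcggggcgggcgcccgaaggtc
Ldhb, chr6:142507908-142508207, minus strand: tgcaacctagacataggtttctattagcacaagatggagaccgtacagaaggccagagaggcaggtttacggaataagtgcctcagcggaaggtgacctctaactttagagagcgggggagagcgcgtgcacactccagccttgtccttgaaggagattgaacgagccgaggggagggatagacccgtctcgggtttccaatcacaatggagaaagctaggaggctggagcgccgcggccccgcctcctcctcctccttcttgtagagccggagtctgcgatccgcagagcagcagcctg
Slc16a1, chr3:104638414-104638713, plus strand: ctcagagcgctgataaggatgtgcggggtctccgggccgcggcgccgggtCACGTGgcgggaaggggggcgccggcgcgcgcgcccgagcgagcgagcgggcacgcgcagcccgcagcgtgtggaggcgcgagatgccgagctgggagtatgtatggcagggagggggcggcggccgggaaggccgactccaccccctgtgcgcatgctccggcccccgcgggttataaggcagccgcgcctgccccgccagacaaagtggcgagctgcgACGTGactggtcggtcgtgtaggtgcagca
Fbp2, chr13:62858351-62858650, minus strand: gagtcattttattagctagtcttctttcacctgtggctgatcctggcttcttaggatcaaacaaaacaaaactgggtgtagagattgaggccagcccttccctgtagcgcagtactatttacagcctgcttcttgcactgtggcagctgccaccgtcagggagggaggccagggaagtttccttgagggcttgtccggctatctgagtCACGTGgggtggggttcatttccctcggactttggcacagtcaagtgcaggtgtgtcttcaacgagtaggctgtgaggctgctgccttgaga

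Over the whole table, 19.6% of 32851 windows held ACGTG on either strand, and 22 of 49 windows of the 31 members with a window did (44.9%). Among the members higher in iWAT at both times, 7 of 16 windows held it (43.8%). The core of cAMP response elements, TGACG or its reverse complement CGTCA, was in 20.8% of all windows, in 10 of 49 member windows (20.4%) and in 0 of those 16. These are matches of letters in the windows, and no binding was measured.

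Among the transporters, Slc2a4 rose in both tissues at both times and was the most abundant member of the group per length in every group. Slc2a4 (ENSMUSG00000018566), which encodes the insulin-regulated GLUT4, had 202, 173, 202, 233 and 232 CPM in iWAT at 22 °C, 350.5, 275, 255, 351 and 349.5 CPM after 6 h and 312, 285, 262, 258 and 271 CPM after 24 h. Every cold iWAT library lay above every 22 °C library, and the log2 fold change was 0.58 ± 0.11 at 6 h (adjusted p = 0.00385) and 0.40 ± 0.11 at 24 h (adjusted p = 0.0176). In BAT, Slc2a4 had 546, 434, 492, 457 and 549.7 CPM at 22 °C, 724, 557, 757, 659 and 628 CPM after 6 h and 734, 704, 567, 663 and 603 CPM after 24 h. Again the cold and 22 °C libraries did not overlap, with log2 fold changes of 0.41 ± 0.10 (adjusted p = 0.00538) and 0.38 ± 0.10 (adjusted p = 0.0077). By FPKM, Slc2a4 made up 89.4% ± 1.27, 91.9% ± 2.16 and 91.2% ± 0.561 of the summed level of the glucose transporter genes Slc2a1, Slc2a3, Slc2a4 and Slc2a8 in iWAT at 22 °C, 6 h and 24 h, and 96% ± 0.536, 97% ± 0.428 and 95.9% ± 0.402 in BAT.

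Slc2a1 (ENSMUSG00000028645), the widely expressed transporter GLUT1, was low in both depots and rose in BAT at 24 h. It had 5.57, 5.12, 4.69, 3.98 and 4.56 CPM in BAT at 22 °C, 5.4, 8.87, 5.38, 6.58 and 5.62 CPM after 6 h and 8.2, 7.13, 8.67, 9.3 and 8.25 CPM after 24 h. All 5 libraries at 24 h lay above all 5 at 22 °C (log2 fold change 0.78 ± 0.15, adjusted p = 0.00116), whereas at 6 h the ranges overlapped (0.40 ± 0.15, adjusted p = 0.0621). In iWAT, Slc2a1 had 6.04, 6.54, 4.75, 5.27 and 7.18 CPM at 22 °C, 9.63, 8.81, 6.65, 3.87 and 5.83 CPM after 6 h and 9.17, 7.62, 6.15, 8.55 and 6.06 CPM after 24 h. Those groups overlapped and neither time was called (adjusted p = 0.498 and 0.285). The difference between the depots in the response of Slc2a1 to 24 h was 0.46 ± 0.26 (adjusted p = 0.292), so a difference between them was not shown.

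The fructose transporter gene Slc2a5 (GLUT5, ENSMUSG00000028976) fell in BAT at 24 h and was not called in iWAT. It had 25.8, 7.72, 25.5, 19.7 and 23.3 CPM in BAT at 22 °C, 8.96, 10.6, 12.1, 15.6 and 7.79 CPM after 6 h and 3.48, 7.03, 1.43, 7.73 and 2.34 CPM after 24 h. At 24 h the highest library was level with the lowest at 22 °C, replicate 2, which stood apart from the other 4. The log2 fold change was -2.23 ± 0.40 at 24 h (adjusted p = 0.000763), -0.91 ± 0.38 at 6 h (adjusted p = 0.0969) and -1.32 ± 0.40 between 24 h and 6 h (adjusted p = 0.037). The call between 24 h and 6 h was lost without 6 h replicates 2, 3 or 4 or 24 h replicates 1, 3 or 5 (adjusted p = 0.0629 to 0.0861). In iWAT it had 10.8, 5.83, 8.35, 11 and 8.79 CPM at 22 °C, 18.5, 14.1, 9.16, 32.3 and 19.8 CPM after 6 h and 8.91, 24.5, 2.39, 18 and 4.87 CPM after 24 h. The cold iWAT libraries reached above and, at 24 h, also below those at 22 °C, and neither time was called (log2 fold change 1.04 ± 0.46 at 6 h, adjusted p = 0.109, and 0.37 ± 0.46 at 24 h, adjusted p = 0.597). The response at 24 h differed between BAT and iWAT by -2.61 ± 0.66 (adjusted p = 0.015). With the muscle-rich libraries left out, which leaves replicate 2 at 22 °C and replicates 1 and 2 at 24 h, the 24 h log2 fold change in BAT was -0.59 (adjusted p = 0.615). With the muscle markers as a covariate it was -2.35 (adjusted p = 0.00189).

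Slc2a3 and Slc2a8, which encode GLUT3 and the intracellular transporter GLUT8, were not called against 22 °C. Slc2a3 averaged 7.9 ± 3.09, 9.61 ± 4.35 and 8.64 ± 2.17 CPM in iWAT at 22 °C, 6 h and 24 h, and 2.1 ± 0.399, 1.6 ± 0.288 and 2.0 ± 0.63 CPM in BAT. Its adjusted p was at least 0.258 in the 4 comparisons with 22 °C. Slc2a8 averaged 17.3 ± 2.15 CPM after 24 h, against 12.5 ± 2.18 CPM after 6 h in BAT, a log2 difference of 0.47 ± 0.12 (adjusted p = 0.0154). It was not called against 22 °C in either tissue (adjusted p from 0.0576 to 0.972).

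Among the hexokinases, Hk2 rose in iWAT at 6 h and Hk1 rose in BAT at both times. Hk2 (ENSMUSG00000000628), the hexokinase of insulin-sensitive tissues, had 124, 132, 182, 151 and 165 CPM in iWAT at 22 °C, 191, 213, 241, 372 and 261 CPM after 6 h and 231, 214, 168, 200.2 and 199 CPM after 24 h. At 6 h all libraries lay above those at 22 °C (0.74 ± 0.16, adjusted p = 0.00668), and at 24 h the ranges overlapped (0.41 ± 0.16, adjusted p = 0.0712). In BAT, Hk2 had 734, 534, 699, 465 and 712 CPM at 22 °C, 732, 777, 1028, 726 and 829.7 CPM after 6 h and 531, 689.5, 538, 497 and 488 CPM after 24 h. Neither time was called against 22 °C (adjusted p = 0.0627 and 0.282). The 24 h libraries all lay below the 6 h libraries (-0.58 ± 0.14, adjusted p = 0.0106). The broadly expressed Hk1 (ENSMUSG00000037012) had 37.3, 35.3, 32.5, 30.5 and 41.3 CPM in BAT at 22 °C, 54.8, 57.4, 63.7, 68.5 and 54.9 CPM after 6 h and 72.7, 52.4, 57.4, 48.9 and 49.9 CPM after 24 h. Cold and 22 °C libraries of BAT did not overlap for Hk1, with log2 fold changes of 0.74 ± 0.11 at 6 h (adjusted p = 0.000135) and 0.65 ± 0.11 at 24 h (adjusted p = 0.000391). In iWAT, Hk1 averaged 14.7 ± 2.46, 12.1 ± 2.87 and 15.9 ± 3.96 CPM and was not called. Its response at 6 h was 1.05 ± 0.23 greater in BAT than in iWAT (adjusted p = 0.00471). The log2 ratio of Hk2 to Hk1 in iWAT averaged 4.40 ± 0.10 after 6 h and 3.36 ± 0.37 at 22 °C, and in BAT it averaged 3.29 ± 0.30 after 24 h and 4.14 ± 0.22 at 22 °C. The ratio was thus 1.04 in iWAT at 6 h and -0.85 in BAT at 24 h relative to 22 °C, without overlap of the libraries (exact permutation test, two-sided, adjusted over 40 ratio tests, p = 0.0317 for each, with an unadjusted p of 0.00794, the smallest that 5 libraries against 5 allow). Hk3, known from blood leukocytes, was at 1.65 to 5.14 CPM in iWAT and 0.504 to 2.15 CPM in BAT at 22 °C and was not called in the cold.

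**Figure D2:**
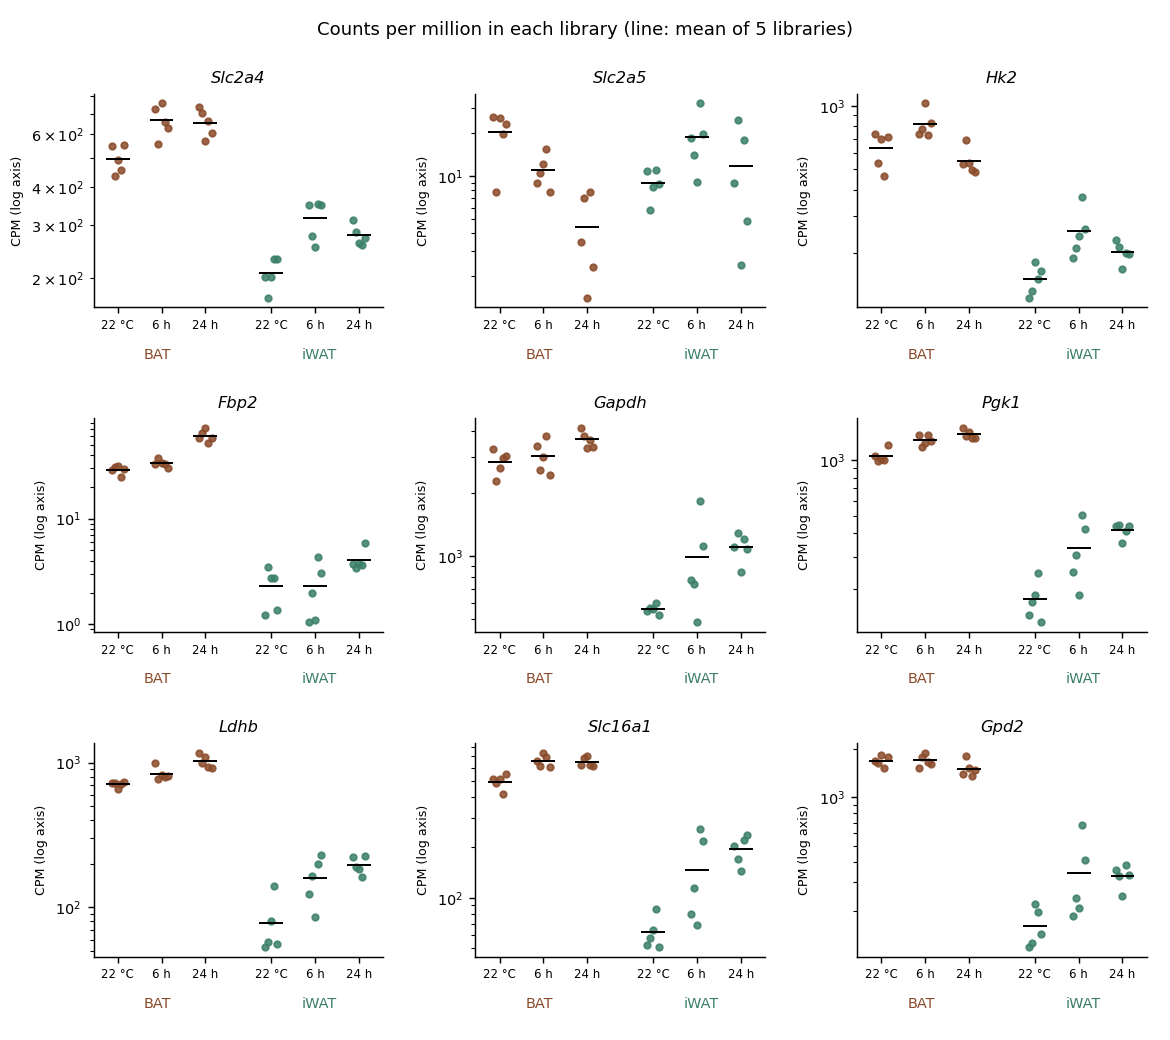
CPM on a log axis of 9 genes in every library, BAT left of iWAT and within each depot at 22 °C, 6 h and 24 h; points are libraries and lines are means of 5. Slc2a4, Pgk1, Ldhb and Slc16a1 stand higher in the cold in both depots, while Slc2a5 and Fbp2 move in BAT at 24 h and Gpd2 in iWAT.

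In upper glycolysis, 4 of the 7 members tested in iWAT rose at 6 h and 5 at 24 h, and in BAT 1 of 8 rose at 6 h and 4 at 24 h. Over all genes 12.9% and 12.8% were called higher in iWAT and 12.5% and 12.8% in BAT, so that the count in BAT at 6 h equals the share over all genes. Aldoa (ENSMUSG00000030695), the main fructose bisphosphate aldolase, had 835, 921, 848, 1140.3 and 837 CPM in iWAT at 22 °C, 2046, 1436, 985, 2322 and 1822 CPM after 6 h and 1753, 2152, 1256, 1737 and 1440.4 CPM after 24 h. At 24 h all libraries lay above the 22 °C range, and at 6 h all but replicate 3 did. The log2 fold changes were 0.89 ± 0.20 (adjusted p = 0.00777) and 0.85 ± 0.20 (adjusted p = 0.00684). Aldoa in BAT had 3793, 2183, 3116, 3278 and 3415 CPM at 22 °C, 4564, 2993, 3169, 4053 and 2764 CPM after 6 h and 4399, 3528, 3716, 3948 and 3043 CPM after 24 h. The ranges in BAT overlapped and Aldoa was not called there (adjusted p = 0.546 and 0.3).

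Glucose phosphate isomerase (Gpi1) and triose phosphate isomerase (Tpi1) rose with Aldoa in iWAT. Gpi1 averaged 188 ± 25.2, 322 ± 130.2 and 355 ± 39.8 CPM, with log2 fold changes of 0.75 ± 0.20 (adjusted p = 0.0177) and 0.90 ± 0.20 (adjusted p = 0.00573). Tpi1 averaged 320.2 ± 31.3, 505 ± 94.3 and 541 ± 80.1 CPM, without overlap of cold and 22 °C libraries at either time (0.63 ± 0.13, adjusted p = 0.00602, and 0.74 ± 0.13, adjusted p = 0.00177). In BAT, Tpi1 was called at 24 h and not at 6 h (adjusted p = 0.35), at 767 ± 81.3 CPM after 24 h, against 575 ± 55.3 CPM at 22 °C (0.40 ± 0.09, adjusted p = 0.00551). Gpi1 was not called in BAT (adjusted p = 0.797 and 0.126).

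Of the phosphofructokinase genes, which encode the committing step of glycolysis, the platelet type Pfkp rose in all 4 comparisons of cold with 22 °C. Pfkp (ENSMUSG00000021196) had 157, 162, 162, 138 and 165 CPM in BAT at 22 °C, 291, 251.7, 259, 259 and 238 CPM after 6 h and 223, 193, 201, 199 and 175 CPM after 24 h. In BAT the 3 groups did not overlap: the 6 h libraries were highest and the 24 h libraries lay between them and the 22 °C libraries. The log2 fold change was 0.71 ± 0.07 at 6 h (adjusted p = 7.85e-06), 0.32 ± 0.07 at 24 h (adjusted p = 0.00404) and -0.39 ± 0.07 between 24 h and 6 h (adjusted p = 0.00251). In iWAT it had 45.3, 42.4, 50.9, 41.5 and 59.6 CPM at 22 °C, 50.8, 65.6, 57.5, 94.4 and 90.7 CPM after 6 h and 78.4, 93.5, 68.8, 91.3 and 99.5 CPM after 24 h. At 24 h the iWAT groups did not overlap (0.83 ± 0.17, adjusted p = 0.00289). At 6 h they overlapped (0.56 ± 0.16, adjusted p = 0.0253), and that call was lost without 22 °C replicates 1 or 2 or 6 h replicates 4 or 5 (adjusted p = 0.0568 to 0.0709).

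The liver type Pfkl averaged 98 ± 21.6, 163 ± 79.3 and 166 ± 33.1 CPM in iWAT and 801 ± 78, 756 ± 102 and 1027 ± 133 CPM in BAT. It was called higher at 24 h in both (0.74 ± 0.26, adjusted p = 0.0458, in iWAT and 0.34 ± 0.10, adjusted p = 0.0236, in BAT). The iWAT call was lost without 22 °C replicates 1, 2, 3 or 5 or 24 h replicates 1, 2, 4 or 5 (adjusted p = 0.0501 to 0.109). In BAT it was lost without 22 °C replicates 2 or 4 or 24 h replicates 1 or 2 (adjusted p = 0.0518 to 0.0668). By FPKM, Pfkl made up 50.9% ± 14.2, 59.6% ± 6.9 and 60.6% ± 4.52 of the 3 phosphofructokinase genes in iWAT and 67.2% ± 9.01, 71.8% ± 3.5 and 75.2% ± 5.45 in BAT. In muscle-rich 22 °C replicate 2 of iWAT, Pfkl was at 26.5% and the muscle type Pfkm at 66.5%. In BAT at 22 °C Pfkm reached 39.9%, in muscle-rich replicate 5. The log2 ratio of Pfkm to Pfkl did not pass in any comparison of cold with 22 °C (exact permutation test, adjusted p = 0.1 to 0.338).

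Fbp2 (ENSMUSG00000021456), the muscle type fructose 1,6-bisphosphatase, which runs the phosphofructokinase step backwards, rose in BAT between 6 h and 24 h. It had 29.1, 30.6, 31.6, 24.8 and 29.6 CPM in BAT at 22 °C, 33.1, 37.3, 33.8, 32.6 and 30.4 CPM after 6 h and 57.8, 64.4, 71.9, 51.7 and 57.9 CPM after 24 h. All 24 h libraries lay above all others, and the 6 h and 22 °C libraries overlapped. The log2 fold change was 1.04 ± 0.09 at 24 h (adjusted p = 1.31e-06) and 0.18 ± 0.09 at 6 h (adjusted p = 0.153). At 24 h over 6 h it was 0.86 ± 0.09 (adjusted p = 4.21e-05). With the muscle-rich libraries left out, the rise at 24 h was 0.98. That setting leaves replicate 2 at 22 °C and replicates 1 and 2 at 24 h, so it cannot decide single calls. In iWAT, Fbp2 had 1.24, 3.45, 2.76, 2.75 and 1.36 CPM at 22 °C, 1.05, 1.98, 1.1, 4.37 and 3.05 CPM after 6 h and 3.72, 3.43, 3.74, 3.65 and 5.9 CPM after 24 h. The iWAT values were low and overlapped, and Fbp2 was not called there (adjusted p = 0.967 and 0.123). Aldoc, the brain type aldolase, was near the floor of detection, with 0 to 11 counts in the iWAT libraries, where it was not tested. In BAT it had 7, 21, 13, 6 and 5 counts at 22 °C, 11, 20, 2, 22 and 9 counts after 6 h and 1, 2, 0, 0 and 6 counts after 24 h. It was called lower at 24 h (-2.57 ± 0.84, adjusted p = 0.035) and at 24 h than at 6 h (-2.74 ± 0.83, adjusted p = 0.0373), with overlapping libraries. The first call was lost without 22 °C replicates 2 or 3 or 24 h replicates 1, 2, 3 or 4 (adjusted p = 0.0507 to 0.105). The second was lost without 6 h replicates 2 or 4 or 24 h replicates 1, 2, 3 or 4 (adjusted p = 0.0515 to 0.0879). The log2 ratio of Aldoc to Aldoa in BAT differed by -3.03 at 24 h from 22 °C, with overlap (exact permutation test, adjusted p = 0.0488).

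The PFKFB enzymes set the level of fructose 2,6-bisphosphate, the activator of phosphofructokinase, and none of their 4 genes was called in iWAT. Pfkfb3 (ENSMUSG00000026773), the inducible form, was the most abundant of the 4 in both depots. In BAT it had 1319.8, 1382, 1302, 999 and 993 CPM at 22 °C, 1421, 1449, 1442, 1164 and 1418 CPM after 6 h and 1037, 1055, 835, 801 and 728 CPM after 24 h. All 24 h libraries lay below all 6 h libraries (-0.63 ± 0.12, adjusted p = 0.00259). Against 22 °C the 24 h libraries overlapped and were called lower (-0.44 ± 0.12, adjusted p = 0.0119), and 6 h was not called (0.19 ± 0.12, adjusted p = 0.278). In iWAT it had 972, 1020.0, 1064, 885 and 1027 CPM at 22 °C, 860.4, 1254, 1388, 1201 and 965 CPM after 6 h and 1214, 711, 1002, 779 and 677 CPM after 24 h. Those ranges overlapped (0.17 ± 0.16, adjusted p = 0.473, and -0.20 ± 0.16, adjusted p = 0.404). Pfkfb1 averaged 42.6 ± 8.8 CPM after 6 h, against 56.8 ± 5.62 CPM at 22 °C in BAT, and was called lower (-0.43 ± 0.12, adjusted p = 0.0171). In iWAT it averaged 91.4 ± 14.3 CPM after 6 h and 75.8 ± 7.86 CPM at 22 °C (0.25 ± 0.14, adjusted p = 0.186). The 6 h response differed between BAT and iWAT by -0.69 ± 0.19 (adjusted p = 0.0233). Pfkfb2 and Pfkfb4 were not called in any comparison of cold with 22 °C, with log2 fold changes of -0.47 to 0.19.

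In lower glycolysis, Gapdh, Pgk1, Pgam1, Eno1 and Pkm rose in iWAT at 6 h, and all of these but Pkm were also called at 24 h. In BAT, Pgk1 rose at 6 h and Gapdh, Pgk1, Pgam1 and Pkm at 24 h, by smaller steps. Gapdh (ENSMUSG00000057666), which oxidises glyceraldehyde 3-phosphate, had 546, 567, 564, 597 and 526 CPM in iWAT at 22 °C, 769, 742, 484, 1843 and 1122 CPM after 6 h and 1108, 1299, 840.3, 1214 and 1088 CPM after 24 h. At 24 h all libraries exceeded the 22 °C range; at 6 h replicate 3 lay below it and replicate 4 was the highest of all. The log2 fold changes were 0.80 ± 0.25 (adjusted p = 0.0322) and 0.97 ± 0.25 (adjusted p = 0.0125). The 6 h call was lost without 22 °C replicates 1, 2, 3 or 5 or 6 h replicates 4 or 5 (adjusted p = 0.0549 to 0.0869). Gapdh in BAT had 3275, 2286, 2659.6, 2960.0 and 3017 CPM at 22 °C, 3391, 2584, 2993, 3757 and 2458 CPM after 6 h and 4109, 3771, 3307, 3616 and 3327 CPM after 24 h. At 24 h, again without overlap, the log2 fold change was 0.34 ± 0.11 (adjusted p = 0.0408), a call lost without 22 °C replicates 2, 3 or 4 or 24 h replicates 1, 2 or 4 (adjusted p = 0.059 to 0.103). Gapdh is widely used as a reference gene, and at 6 h in BAT its log2 fold change was 0.08 ± 0.11 (adjusted p = 0.649). Of the 50-base stretches of its annotated transcript, 82.5% also occur in transcripts of other genes, so its counts depend on how shared reads were assigned. The corresponding shares were 72.2% for Eno1, 68.0% for Pgk1, 41.5% for Pgam1, 34.4% for Pkm and 27.0% for Ldhb, and they were 0 for Slc2a4, Hk2, Fbp2, Pgam2, Eno3 and Slc16a1.

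Pgk1 (ENSMUSG00000062070), the first ATP-yielding step, had 146, 171, 187, 245 and 133 CPM in iWAT at 22 °C, 247, 306, 187, 504 and 423 CPM after 6 h and 439.9, 442, 356, 413 and 437 CPM after 24 h. At 24 h there was no overlap with 22 °C, and at 6 h replicate 3 alone lay within the 22 °C range. The log2 fold changes were 0.90 ± 0.22 (adjusted p = 0.0121) and 1.23 ± 0.22 (adjusted p = 0.00181). In BAT, Pgk1 had 1043, 989, 1009, 998 and 1199 CPM at 22 °C, 1365, 1173, 1231, 1358 and 1265 CPM after 6 h and 1483, 1343, 1418, 1306 and 1307 CPM after 24 h. The 24 h libraries all exceeded those at 22 °C, whose replicate 5 reached into the 6 h range (0.27 ± 0.06, adjusted p = 0.0062, and 0.37 ± 0.06, adjusted p = 0.000578).

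Pgam1 (ENSMUSG00000011752), the non-muscle phosphoglycerate mutase, had 94.6, 103, 137, 145 and 103 CPM in iWAT at 22 °C, 181, 234, 151, 304 and 268 CPM after 6 h and 304, 253, 232, 254 and 266 CPM after 24 h. Cold and 22 °C libraries did not overlap at either time, with log2 fold changes of 0.94 ± 0.17 (adjusted p = 0.00278) and 1.15 ± 0.17 (adjusted p = 0.000595). Pgam1 in BAT had 625, 629.5, 618, 582 and 618 CPM at 22 °C, 716, 624, 699, 752 and 655 CPM after 6 h and 886, 815, 787, 784 and 774 CPM after 24 h. The 24 h libraries lay above all others (0.38 ± 0.06, adjusted p = 0.000201), and 6 h was not called (0.15 ± 0.06, adjusted p = 0.0744).

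Eno1, the ubiquitous enolase, averaged 567 ± 129.7, 1046 ± 483 and 1053 ± 213 CPM in iWAT (0.86 ± 0.25, adjusted p = 0.025, and 0.88 ± 0.25, adjusted p = 0.0213), with overlapping libraries. Its call at 6 h was lost without 22 °C replicates 1 or 2 or 6 h replicates 4 or 5 (adjusted p = 0.0557 to 0.0695). At 24 h it was lost without 22 °C replicate 2 or 24 h replicate 2 (adjusted p = 0.0529 to 0.0532). In BAT it averaged 3773 ± 493, 3612 ± 601 and 3988 ± 575 CPM and was not called (adjusted p = 0.698 and 0.738). Pkm, the pyruvate kinase of tissues other than liver and red cells, averaged 341 ± 42.4, 583 ± 317 and 562 ± 103 CPM in iWAT and 1984 ± 196, 2116 ± 272 and 2459 ± 217 CPM in BAT. It was called at 6 h in iWAT (0.75 ± 0.26, adjusted p = 0.045) and at 24 h in BAT (0.29 ± 0.09, adjusted p = 0.0257). The iWAT call was lost without 22 °C replicates 1, 2, 3 or 5 or 6 h replicates 4 or 5 (adjusted p = 0.074 to 0.134). That in BAT was lost without 22 °C replicates 2, 3 or 4 or 24 h replicates 1, 2 or 4 (adjusted p = 0.0506 to 0.0707). The neuronal enolase Eno2 was at 1.53 to 3.56 CPM in iWAT and 0.482 to 1.14 CPM in BAT at 22 °C and was not called in the cold.

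The muscle isoforms were highest in the libraries with the most muscle marker RNA. Eno3 (ENSMUSG00000060600), the muscle enolase, had 10.5, 119, 9.89, 11.2 and 11.2 CPM in iWAT at 22 °C, 12.6, 10.6, 8.67, 7.85 and 8.85 CPM after 6 h and 9.92, 8.34, 9.57, 9.48 and 6.73 CPM after 24 h. Replicate 2 at 22 °C stood apart from all other iWAT libraries, and the remaining 4 libraries at 22 °C overlapped the cold ones. Pgam2 (ENSMUSG00000020475), the muscle phosphoglycerate mutase, had 1.07, 30.1, 0.142, 0.709 and 0.203 CPM in iWAT at 22 °C, 0.729, 0.554, 0.386, 0.466 and 0.521 CPM after 6 h and 0.519, 0.396, 0.47, 0.317 and 0.188 CPM after 24 h. The same library stood apart, which also held 4277 CPM of muscle markers against 52.3 to 61.5 CPM in the other 4 at 22 °C. Both genes were called lower in iWAT by the main test. DESeq2 called 0 members lower there at 6 h and at 24 h, and so did edgeR with the replicate number as a block. The log2 fold change of Eno3 was -1.77 ± 0.60 at 6 h (adjusted p = 0.0443) and -1.90 ± 0.60 at 24 h (adjusted p = 0.0326), and that of Pgam2 was -3.62 ± 1.14 (adjusted p = 0.0327) and -4.10 ± 1.17 (adjusted p = 0.0199). Without that replicate, the log2 fold changes of Eno3 were -0.14 (adjusted p = 0.524) and -0.27 (adjusted p = 0.222), and those of Pgam2 were 0.001 (adjusted p = 0.999) and -0.47 (adjusted p = 0.563). The Eno3 call at 6 h was also lost when any single 6 h library was left out, and at 24 h without 22 °C replicate 2 or 24 h replicates 1, 2, 4 or 5 (adjusted p = 0.0578 to 0.222). The Pgam2 call at 6 h was lost without 22 °C replicate 2 or 6 h replicates 1, 2, 4 or 5 (adjusted p = 0.0545 to 0.999). The log2 ratio of Eno3 to Eno1 in iWAT differed by -1.65 at 6 h, with overlap (exact permutation test, adjusted p = 0.0488). At 24 h it differed by -1.88, without overlap (exact permutation test, adjusted p = 0.0317). Both values include 22 °C replicate 2, and Eno1 was called higher at both times. The ratio of Pgam2 to Pgam1 did not pass (exact permutation test, adjusted p = 0.338 and 0.13).

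In BAT, Eno3 had 71.1, 14.4, 66.9, 198 and 251 CPM at 22 °C, 5.32, 45, 11.7, 5.5 and 15 CPM after 6 h and 4.59, 2.89, 39.5, 24.9 and 126 CPM after 24 h. Pgam2 had 20.8, 3.24, 20.1, 59.7 and 72 CPM in BAT at 22 °C, 1.28, 13.2, 3.97, 1.16 and 4.61 CPM after 6 h and 0.616, 0.745, 8.52, 6.51 and 35.7 CPM after 24 h. For both genes the high libraries were the ones with high muscle markers: 22 °C replicates 4 and 5, with 6568 and 10599 CPM of markers, 6 h replicate 2, with 1934 CPM, and 24 h replicate 5, with 5538 CPM. At 6 h, Eno3 was called lower (-2.87 ± 0.93, adjusted p = 0.0343), a call lost without 22 °C replicates 4 or 5 or 6 h replicates 1, 3, 4 or 5 (adjusted p = 0.0672 to 0.0812). Pgam2 was called lower too (-2.86 ± 0.97, adjusted p = 0.0426), a call lost without 22 °C replicates 1, 3, 4 or 5 or 6 h replicates 1, 3, 4 or 5 (adjusted p = 0.051 to 0.0992). With the muscle markers as a covariate, the 6 h log2 fold change in BAT was -0.67 for Eno3 (adjusted p = 0.13) and -0.39 for Pgam2 (adjusted p = 0.382). Of the 13 muscle markers tested in BAT, 2 were called lower at 6 h and 0 at 24 h, where 10.2% and 10.4% of all genes were. In iWAT 4 of 6 were called lower at 6 h and 3 of 6 at 24 h, where 10.1% of all genes were at either time.

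Pfkm (ENSMUSG00000033065), the muscle phosphofructokinase, which fat also expresses, moved in part with the same libraries. It had 22.2, 100.3, 27.5, 28 and 25.3 CPM in iWAT at 22 °C, 35.3, 29, 26.4, 38.6 and 35.6 CPM after 6 h and 35.4, 33.4, 31.9, 26.3 and 30.2 CPM after 24 h. Only 22 °C replicate 2 lay apart from the rest, and Pfkm was not called (adjusted p = 0.479 and 0.41). Without that library the log2 fold change was 0.35 at 6 h (adjusted p = 0.0635). In BAT it had 125, 80.3, 123, 209 and 285 CPM at 22 °C, 80.8, 105, 77.2, 81.3 and 69.3 CPM after 6 h and 98.8, 91.3, 121, 91.8 and 193 CPM after 24 h. The highest libraries were 22 °C replicates 4 and 5 and 24 h replicate 5. The 6 h value was called lower (-1.01 ± 0.28, adjusted p = 0.0166), a call lost without 22 °C replicate 5 (adjusted p = 0.0527). With the muscle markers as a covariate it was -0.52 (adjusted p = 0.182).

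**Figure D3:**
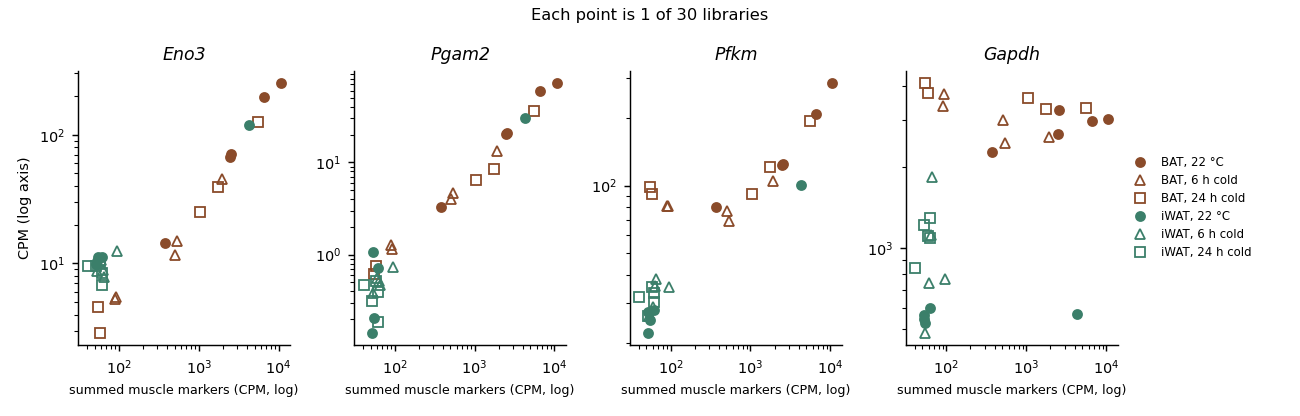
CPM of Eno3, Pgam2, Pfkm and Gapdh in each of the 30 libraries against the summed CPM of 14 skeletal muscle markers, both on log axes. Eno3 and Pgam2 climb with the markers in BAT, while in iWAT only the library at 4277 CPM stands apart. Gapdh splits by depot instead.

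The largest called rise of the list in iWAT, at 6 h and at 24 h, was that of the lactate transporter gene Slc16a1. Ldhb rose as well, while Ldha was not called in any comparison of cold with 22 °C. Slc16a1 (ENSMUSG00000032902), the lactate and pyruvate transporter MCT1, had 51.9, 57.5, 64.4, 86.1 and 50.7 CPM in iWAT at 22 °C, 79.6, 114, 69, 256 and 218 CPM after 6 h and 203, 170.3, 144, 222 and 236 CPM after 24 h. At 24 h every library lay above the 22 °C range, and at 6 h replicates 1 and 3 lay within it. The log2 fold changes were 1.22 ± 0.30 (adjusted p = 0.0125) and 1.63 ± 0.31 (adjusted p = 0.00217). In BAT, Slc16a1 had 513, 483, 509.5, 418 and 549 CPM at 22 °C, 653, 617, 734, 693 and 606 CPM after 6 h and 622, 686, 706, 619 and 614 CPM after 24 h. All cold libraries exceeded those at 22 °C, by 0.40 ± 0.08 (adjusted p = 0.00137) and 0.38 ± 0.08 (adjusted p = 0.00221). Slc16a3, the lactate exporter MCT4 typical of fast muscle, averaged 1.27 ± 2.05, 0.442 ± 0.176 and 0.42 ± 0.166 CPM in iWAT and 3.13 ± 2.28, 1.17 ± 0.542 and 1.64 ± 1.32 CPM in BAT. In iWAT its highest library was again 22 °C replicate 2, and it was not called in the cold (adjusted p from 0.0942 to 0.268).

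Ldhb (ENSMUSG00000030246), the heart type subunit of lactate dehydrogenase, had 53.3, 57.7, 80.7, 141 and 56 CPM in iWAT at 22 °C, 124, 164, 85.3, 198 and 229 CPM after 6 h and 223, 189, 185, 162 and 227 CPM after 24 h. At 24 h the iWAT libraries lay above all at 22 °C, and at 6 h replicates 1 and 3 lay within their range (1.02 ± 0.27, adjusted p = 0.0165, and 1.33 ± 0.27, adjusted p = 0.00346). Ldhb in BAT had 727, 719, 656, 711 and 729 CPM at 22 °C, 991, 770.1, 815, 798 and 804 CPM after 6 h and 1168, 1002, 1092, 934 and 918 CPM after 24 h. Neither cold group overlapped 22 °C, with log2 fold changes of 0.22 ± 0.08 (adjusted p = 0.0449) and 0.51 ± 0.08 (adjusted p = 0.000154). The 6 h call in BAT was lost without 22 °C replicates 1, 2, 3, 4 or 5 or 6 h replicates 1, 3, 4 or 5 (adjusted p = 0.0512 to 0.107). Between 24 h and 6 h in BAT, Ldhb was called higher (0.29 ± 0.08, adjusted p = 0.0205), a call lost without 24 h replicate 1 (adjusted p = 0.0565).

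Ldha (ENSMUSG00000063229), the muscle type subunit, had 706, 695, 689.9, 917 and 775 CPM in iWAT at 22 °C, 977, 931, 789.9, 1357 and 1036 CPM after 6 h and 953, 1201, 674, 905 and 804 CPM after 24 h. Replicates 4 at 22 °C and at 6 h were the highest of their groups and the ranges overlapped (0.41 ± 0.16, adjusted p = 0.0667, and 0.24 ± 0.16, adjusted p = 0.268). In BAT it had 1893, 1567, 1716, 1785 and 1772 CPM at 22 °C, 1922, 1581, 1762, 1813 and 1649 CPM after 6 h and 2213, 2045, 1849, 2007 and 1642 CPM after 24 h. The ranges overlapped there too (-0.01 ± 0.08, adjusted p = 0.916, and 0.14 ± 0.08, adjusted p = 0.2). By FPKM, Ldhb made up 17.2% ± 4.84, 24.4% ± 5.18 and 31.9% ± 5.54 of the sum of Ldha and Ldhb in iWAT at 22 °C, 6 h and 24 h, and 46.1% ± 1.87, 50.2% ± 1.49 and 52.5% ± 2.4 in BAT. The size of these shares depends on the gene lengths behind the FPKM. The log2 ratio of Ldhb to Ldha averaged -2.19 ± 0.38 after 24 h and -3.38 ± 0.47 at 22 °C in iWAT, a difference of 1.20 without overlap (exact permutation test, adjusted p = 0.0317). At 6 h in iWAT it differed by 0.65, with overlapping libraries, and did not pass (exact permutation test, adjusted p = 0.111). The ratio in BAT differed by 0.23 at 6 h (exact permutation test, adjusted p = 0.0488) and by 0.37 at 24 h (exact permutation test, adjusted p = 0.0317).

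**Figure D4:**
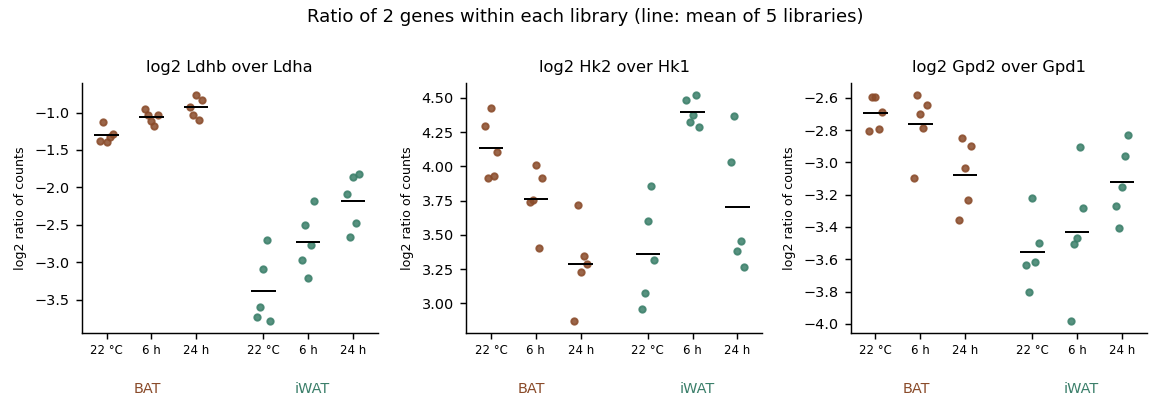
Log2 ratios of Ldhb to Ldha, Hk2 to Hk1 and Gpd2 to Gpd1 in every library, BAT left of iWAT and by time within each; points are libraries and lines are means of 5. The Ldhb to Ldha ratio of the 24 h libraries lies above that of the 22 °C libraries in both depots, and the Hk2 to Hk1 ratio is higher at 6 h in iWAT and lower at 24 h in BAT than at 22 °C.

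The 2 glycerol 3-phosphate dehydrogenases rose in iWAT at both times and were not called in BAT. Gpd1 (ENSMUSG00000023019), the cytosolic enzyme that makes glycerol 3-phosphate, was the most abundant of the 34 genes by the deposited FPKM in all 6 groups, with Aldoa next. It had 1487, 1762, 2045, 2427 and 1631 CPM in iWAT at 22 °C, 2953, 2747, 2299.8, 5041 and 3967 CPM after 6 h and 3445, 3490.1, 2182, 2999 and 2371 CPM after 24 h. The 6 h and 24 h libraries lay mostly above those at 22 °C, with 6 h replicate 3 and 24 h replicates 3 and 5 within the 22 °C range. The log2 fold changes were 0.84 ± 0.21 (adjusted p = 0.0123) and 0.61 ± 0.21 (adjusted p = 0.0418). The 24 h call was lost without 22 °C replicates 1, 2, 3 or 5 or 24 h replicates 1, 2 or 4 (adjusted p = 0.0569 to 0.107). Gpd1 in BAT had 11713, 9811, 10995, 10591 and 11363 CPM at 22 °C, 13004, 10547, 12253, 11489 and 10086 CPM after 6 h and 14349.7, 13066, 12381, 12681 and 10955 CPM after 24 h. Those ranges overlapped (adjusted p = 0.624 and 0.0716). Gpd2 (ENSMUSG00000026827), the mitochondrial enzyme that passes its electrons to the respiratory chain, had 119.5, 126, 219, 198 and 145 CPM in iWAT at 22 °C, 187, 241, 208, 674 and 408 CPM after 6 h and 357, 329, 246, 385 and 334 CPM after 24 h. No overlap was seen at 24 h, and at 6 h replicates 1 and 3 lay within the 22 °C range (1.07 ± 0.30, adjusted p = 0.0202, and 1.01 ± 0.30, adjusted p = 0.0225). The 6 h call was lost without 22 °C replicates 1 or 2 or 6 h replicate 4 (adjusted p = 0.0517 to 0.057). That at 24 h was lost without 22 °C replicates 1 or 2 (adjusted p = 0.0535 to 0.0613). In BAT, Gpd2 had 1678, 1626, 1818, 1527 and 1763 CPM at 22 °C, 1519.6, 1763, 1882, 1665 and 1616 CPM after 6 h and 1401, 1809, 1511, 1347 and 1466 CPM after 24 h. The BAT groups overlapped (adjusted p = 0.957 and 0.147). The log2 ratio of Gpd2 to Gpd1 in BAT averaged -3.08 ± 0.22 after 24 h and -2.69 ± 0.10 at 22 °C, a difference of -0.38 without overlap (exact permutation test, adjusted p = 0.0317). In iWAT at 24 h the difference was 0.43, with overlap, and did not pass (exact permutation test, adjusted p = 0.0635).

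Within iWAT the same libraries tended to be high or low for a part of the list, and other members went the other way. At 6 h, replicates 4 and 5 were the highest for Gapdh, Pgk1, Pgam1, Slc16a1, Gpd1 and Gpd2, and they held 5465 and 5757 CPM of brown fat markers. Replicate 3 was the lowest of that group for Gapdh, Pgk1, Pgam1, Ldhb, Slc16a1 and Gpd1, and held 759 CPM of those markers. It was, however, the highest of the 6 h group for Slc2a3, Pfkfb3 and Pfkfb4. Replicate 4 was the lowest there for Slc2a1, Slc2a3, Slc2a8, Hk3 and Pfkfb1. At 22 °C, replicate 4 was the highest for Aldoa, Gapdh, Pgk1, Pgam1, Ldhb, Slc16a1 and Gpd1, and held the most brown fat marker RNA of that group (1392 CPM). The same library was the lowest at 22 °C for Slc2a3, Hk1, Pfkp, Pfkfb3 and Pfkfb4. Of the 7 brown fat markers, 3 were called higher in iWAT at 6 h and 5 at 24 h, where 12.9% and 12.8% of all genes were. Endothelial markers were called lower in iWAT, 4 of 7 at 6 h and 5 of 7 at 24 h, and so were 3 and 2 of 7 progenitor and fibroblast markers and, at 6 h, 3 of 7 macrophage markers, where 10.1% of all genes were called lower at either time. In BAT, 3 of 7 brown fat markers were called higher at each time, and at 24 h so were 3 of 7 adipocyte and 2 of 7 macrophage markers, where 12.5% and 12.8% of all genes were called higher at 6 h and 24 h. Adipocyte markers in BAT also fell: 2 were called lower and 1 higher at 6 h, and 1 lower at 24 h. Of all genes, 10.2% and 10.4% were called lower there. In iWAT, 2 of 7 adipocyte markers were called higher and 0 lower at each time. The part of these shifts in cell markers in the changes of the glycolytic genes was not tested.

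At 22 °C, 24 of the 34 members were higher in BAT than in iWAT and 5 were lower, where 66.9% of the 14089 genes tested were called (32.4% higher, 34.5% lower). The members' median log2 difference was 1.84, against -0.04 over all genes. With the muscle-rich libraries left out, which leaves 1 BAT library at 22 °C, these medians were 1.46 and -0.06. Without overlap between the depots, 20 were higher and 4 lower, while 52.7% of genes did not overlap in either direction. All 8 members of upper glycolysis were called higher, 7 of 8 of lower glycolysis, 3 of 4 lactate genes and both glycerol phosphate genes, but 0 of the 4 PFKFB genes. The largest log2 differences were in Fbp2 (3.67 ± 0.28, adjusted p = 4.85e-12), Gpd2 (3.38 ± 0.25, adjusted p = 3.38e-12), Ldhb (3.19 ± 0.23, adjusted p = 1.96e-12), Pfkl (3.03 ± 0.23, adjusted p = 3.13e-12) and Slc16a1 (2.99 ± 0.25, adjusted p = 3.37e-11). Slc2a4 differed less (1.25 ± 0.11, adjusted p = 6.25e-11), and so did Tpi1 (0.84 ± 0.12, adjusted p = 7.01e-07) and Ldha (1.21 ± 0.13, adjusted p = 5.74e-09). Lower in BAT were Slc2a3 (-1.91 ± 0.29), Hk3 (-1.86 ± 0.46), Eno2 (-1.74 ± 0.34), Pfkfb4 (-1.70 ± 0.22) and Pfkfb1 (-0.42 ± 0.14), with adjusted p from 1.47e-07 to 0.00832. Not called were Slc2a1, Slc2a8, Pfkfb2, Pfkfb3 and Slc16a3, with log2 differences of -0.32 to 1.31. On the deposited FPKM, with a pseudocount of 1, the median of all genes lay 0.34 lower on the log2 scale, and 22 members were called higher and 9 lower, Pfkfb3 among the lower ones.

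Some depot calls rested on few libraries. The Slc2a5 call (1.19 ± 0.46, adjusted p = 0.0238) was lost without iWAT 22 °C replicate 2 or BAT 22 °C replicates 1 or 3 (adjusted p = 0.0507 to 0.0561). The Aldoc call (2.47 ± 0.83, adjusted p = 0.0102) was lost without BAT 22 °C replicate 2 (adjusted p = 0.0506). For the muscle isoforms, Pgam2 (2.46 ± 1.04, adjusted p = 0.0379) was lost without iWAT 22 °C replicates 1, 3, 4 or 5 or BAT 22 °C replicates 4 or 5 (adjusted p = 0.0752 to 0.104). Likewise Eno3 (1.90 ± 0.81, adjusted p = 0.0413) was lost without iWAT 22 °C replicates 1, 3, 4 or 5 or BAT 22 °C replicates 4 or 5 (adjusted p = 0.0898 to 0.135).

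By the deposited FPKM, the order of the highest genes differed between the depots at 22 °C. These FPKM imply gene lengths well above the longest annotated coding transcript for Gapdh (1420 bases) and Eno1 (2027 bases). For Gpd1 the implied length is near that transcript (2861 bases), so the order holds for the lengths used in the FPKM only. In BAT the FPKM averaged 3162 ± 184 for Gpd1, 932 ± 171 for Aldoa, 603 ± 74.5 for Eno1, 590.3 ± 75.1 for Gapdh, 454 ± 28.9 for Ldha, 401 ± 29.5 for Pgk1 and 388 ± 15.3 for Ldhb. Eno1 and Gapdh, and likewise Pgk1 and Ldhb, were closer together than the larger of their SD. In iWAT it averaged 819 ± 122 for Gpd1, 409 ± 39.6 for Aldoa, 297 ± 22.7 for Ldha, 177 ± 7.95 for Gapdh, 172 ± 19.2 for Pfkfb3, 152 ± 11.5 for Tpi1 and 136 ± 24.1 for Eno1. There Ldha followed Aldoa, and Gapdh and Pfkfb3, and likewise Tpi1 and Eno1, were closer together than the larger of their SD. Ldhb, at 388 ± 15.3 FPKM in BAT against 63.5 ± 25.8 FPKM in iWAT, was near Ldha in BAT by FPKM and far below it in iWAT. By counts it was lower than Ldha in BAT too, with a log2 ratio of -1.30 ± 0.11 at 22 °C. The FPKM imply a length of Ldha well above its longest annotated coding transcript (1815 bases), and of Ldhb nearer to its own (1304 bases).

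**Figure D5:**
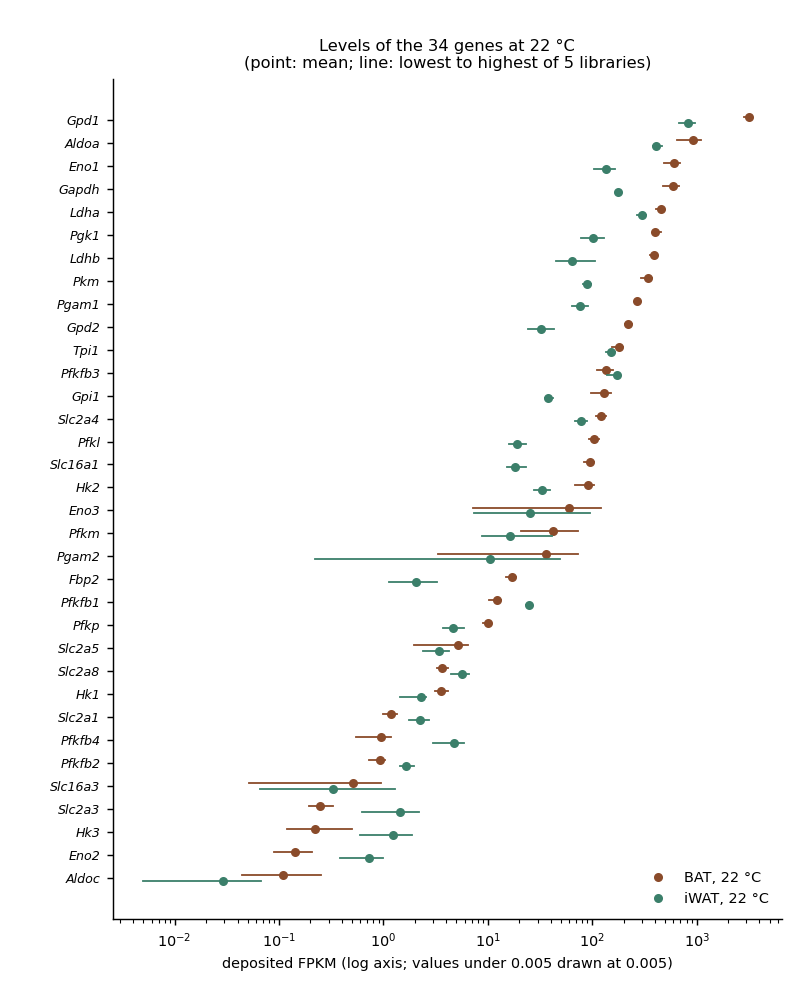
Deposited FPKM of the 34 genes at 22 °C in BAT and iWAT on a log axis; points are means of 5 libraries, lines run from the lowest to the highest library, and values under 0.005 are drawn at 0.005. Gpd1 and Aldoa are the highest genes in both depots, and Aldoc is the lowest.

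The response to cold differed between BAT and iWAT for several members. The difference between depots at 6 h, BAT minus iWAT in log2 fold change, was called for 6 of 34 members, 1 higher and 5 lower, where 9.4% of genes were called (3.38% higher, 6.03% lower). The one higher was Hk1, given above. Lower, beside Pfkfb1, were Pgam1 (-0.80 ± 0.19, adjusted p = 0.00847), Eno1 (-0.95 ± 0.30, adjusted p = 0.0459), Gpd1 (-0.79 ± 0.24, adjusted p = 0.0353) and Gpd2 (-1.08 ± 0.33, adjusted p = 0.0357). The Eno1 call was lost without iWAT 22 °C replicates 1, 2, 3 or 5, iWAT 6 h replicates 4 or 5, BAT 22 °C replicates 1, 3, 4 or 5 or BAT 6 h replicates 2, 3 or 5 (adjusted p = 0.0558 to 0.108). The Gpd1 call was lost without iWAT 22 °C replicates 1, 2 or 5, iWAT 6 h replicates 4 or 5, BAT 22 °C replicates 1 or 3 or BAT 6 h replicates 2 or 5 (adjusted p = 0.0516 to 0.0752). The Gpd2 call at 6 h was lost without iWAT 22 °C replicates 1, 2 or 5, iWAT 6 h replicates 4 or 5, BAT 22 °C replicate 3 or BAT 6 h replicates 2, 4 or 5 (adjusted p = 0.0503 to 0.0813). At 24 h, 5 of 34 were called, all lower, where 7.81% of genes were called (2.96% higher, 4.85% lower). They were Slc2a5, given above, Slc16a1 (-1.26 ± 0.33, adjusted p = 0.0189), Gpd2 (-1.19 ± 0.33, adjusted p = 0.0244), Pgk1 (-0.86 ± 0.25, adjusted p = 0.0301) and Pgam1 (-0.77 ± 0.19, adjusted p = 0.0128). The Pgk1 call was lost without iWAT 22 °C replicates 1, 2 or 5 or BAT 24 h replicate 4 (adjusted p = 0.0522 to 0.0653), and the Gpd2 call at 24 h without iWAT 22 °C replicates 1 or 2 (adjusted p = 0.0507 to 0.0539). With 1 library left out, 3 members were called at 6 h for each of 7 libraries: replicates 1 and 5 at 22 °C and 4 and 5 at 6 h in iWAT, and replicates 3 at 22 °C and 2 and 5 at 6 h in BAT. Leaving out 1 gave 14 without 22 °C replicate 4 and 16 without 6 h replicate 3 of iWAT. At 24 h it gave 3 without 22 °C replicate 1 or 2 and 8 without 22 °C replicate 4 of iWAT. Calls over all genes ranged from 862 to 2179 at 6 h (1325 with all libraries) and from 702 to 1644 at 24 h (1100 with all libraries). Leaving out the muscle-rich libraries leaves 1 BAT library at 22 °C, so that setting cannot decide single calls. The members' median difference was then -0.40 at 6 h and -0.18 at 24 h, against -0.58 and -0.33 with all libraries. By limma on FPKM with pseudocounts of 1 and 0.1, 3 and 2 members were called at 6 h and 6 and 5 at 24 h. For Slc2a4 the difference was -0.18 ± 0.15 at 6 h and -0.01 ± 0.15 at 24 h (adjusted p = 0.49 and 0.966). These differences start from 22 °C levels that were several-fold higher in BAT: Slc16a1, for example, averaged 494 ± 48.7 CPM in BAT and 62.1 ± 14.5 CPM in iWAT.

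Of 43 other genes of sugar and pyruvate metabolism, 12 of 36 tested rose and 1 fell in iWAT at 6 h, and 8 rose and 4 fell at 24 h. In BAT 4 of 37 rose and 7 fell at 6 h, and 8 rose and 5 fell at 24 h. The shares called were 36.1% and 33.3% in iWAT, where 23% of all genes were called at each time, and 29.7% and 35.1% in BAT, where 22.7% and 23.1% were. The liver type bisphosphatase gene Fbp1 in BAT averaged 0.284 ± 0.243, 0.996 ± 0.109 and 2.23 ± 0.559 CPM at 22 °C, 6 h and 24 h. Got1, the cytosolic aspartate aminotransferase of the malate-aspartate shuttle, averaged 6.47 ± 1.73, 21.7 ± 14.8 and 47.7 ± 12.8 CPM in iWAT and 64.8 ± 19.1, 184 ± 14.8 and 209 ± 22.8 CPM in BAT. It was called in all 4 comparisons with 22 °C, with log2 fold changes of 1.72 ± 0.39 and 2.87 ± 0.40 in iWAT and 1.49 ± 0.15 and 1.67 ± 0.15 in BAT (adjusted p from 1.61e-06 to 0.00797). The mitochondrial pyruvate carrier genes Mpc1 and Mpc2 rose in iWAT, Mpc1 by 0.85 ± 0.22 and 0.84 ± 0.22, and Mpc2 by 0.93 ± 0.22 and 1.05 ± 0.22 at 6 h and 24 h. Cytosolic malate dehydrogenase Mdh1, the partner of Got1 in that shuttle, rose by 0.79 ± 0.15 and 0.92 ± 0.15 in iWAT. In BAT the monocarboxylate transporter gene Slc16a7 (MCT2) fell, with log2 fold changes of -1.07 ± 0.21 at 6 h and -1.73 ± 0.22 at 24 h, and averaged 21.1 ± 4.45, 10.1 ± 3.69 and 6.44 ± 0.9 CPM. Transketolase (Tkt) of the pentose phosphate pathway fell in BAT too, with log2 fold changes of -0.57 ± 0.15 and -0.71 ± 0.15. Pck1, the cytosolic phosphoenolpyruvate carboxykinase of glyceroneogenesis, averaged 2966 ± 359 CPM after 24 h and 4724 ± 686 CPM at 22 °C in BAT (-0.69 ± 0.11, adjusted p = 0.000194). Its 24 h response differed between BAT and iWAT by -1.25 ± 0.17 (adjusted p = 7.92e-05).

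Of 19 regulators of glucose uptake and of glycolytic genes, 3 rose and 2 fell in iWAT at 6 h, 5 rose and 1 fell at 24 h, and in BAT 2 rose and 4 fell at 6 h and 2 rose and 3 fell at 24 h. The shares called, 26.3% and 31.6% in iWAT and 31.6% and 26.3% in BAT, were near the 22.7% to 23.1% of all genes. Irs1, the insulin receptor substrate, averaged 68.1 ± 12.6, 40.0 ± 3.66 and 28 ± 2.43 CPM in BAT and fell, with log2 fold changes of -0.78 ± 0.11 at 6 h (adjusted p = 0.000134) and -1.30 ± 0.12 at 24 h (adjusted p = 1.67e-06). At 24 h the Irs1 response differed between BAT and iWAT by -1.30 ± 0.18 (adjusted p = 8.92e-05). Mlx, the dimer partner of the glucose-sensing factor ChREBP, rose at 6 h in both depots, by 0.75 ± 0.14 in iWAT (adjusted p = 0.00362) and 0.58 ± 0.08 in BAT (adjusted p = 0.000129). ChREBP itself (Mlxipl) fell in BAT, with log2 fold changes of -0.27 ± 0.08 and -0.30 ± 0.08 (adjusted p = 0.0185 and 0.00805). Akt2, the insulin-responsive kinase upstream of GLUT4, was called lower in BAT at 6 h (-0.55 ± 0.07, adjusted p = 6.39e-05), as was Tbc1d4, its substrate in GLUT4 traffic (-0.37 ± 0.10, adjusted p = 0.0141). Trib3, a pseudokinase that binds Akt, was called higher at 24 h in iWAT (1.19 ± 0.29, adjusted p = 0.0095) and in BAT (0.88 ± 0.29, adjusted p = 0.0369). The insulin receptor gene Insr was called higher in iWAT at both times (0.37 ± 0.09, adjusted p = 0.011, and 0.52 ± 0.09, adjusted p = 0.00147).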

How the data were processed

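Bulk RNA libraries of iWAT and BAT had been made from polyadenylated RNA with the NEBNext Ultra II kit, per the labels' protocols. Per the submitters' processing notes, HISAT2, HTSeq and the assembly GRCm39 were used, with versions and strand setting not given in the sources used here. The deposited counts are whole numbers of reads per gene, unscaled by the authors. The deposited FPKM are counts that the authors divided by gene length and by the library total, and they were used for levels between genes and for 1 alternative. The 21652 genes include 495 without a symbol. Totals were 25.3 to 41 M (1e6), and chi-square per degree of freedom between libraries of a group was 14.6 to 191 over 60 pairs, so no 2 libraries agreed within counting noise.

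Counts were tested in R 4.3.3 with edgeR 4.0.16: filterByExpr with a minimum count of 10, TMM factors, the quasi-likelihood test and Benjamini-Hochberg adjustment over all genes tested, called under 0.05. Each tissue had its own fit of 3 groups, and tissues were compared in a fit of all 30 libraries. The approximate SE of a log2 fold change is its size over the root of F. Ratios of 8 isoform pairs (log2 of counts plus 0.5) were compared in 5 comparisons by exact two-sided permutation tests, adjusted over 40 tests. Simulated counts for the comparison of 6 h with 22 °C in iWAT, with 13689 genes, returned 73% of 100 changes of log2 size 1 and 94% of 100 of size 2, with 2 false calls of 169. For BAT, with 13090 genes, the values were 78% and 93%, with 16 false calls of 187.

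The members and gene lists were chosen with earlier results of these data known. Values in every library are given for members called against 22 °C with a log2 fold change of at least 1 in size and at least 5 CPM in a group, for the 3 members of highest FPKM and for Slc2a1, Slc2a4, Hk2, Pfkfb3, Ldha, Ldhb, Eno3 and Pgam2. Those of Hk1 and Pfkp were added after their values were seen. Other pathway genes and regulators are examples among the largest called changes of their lists, with further ones also chosen after their values were seen. As alternatives, the counts were tested with DESeq2 1.42.0, with upper-quartile or RLE factors and unfiltered, and FPKM with limma 3.58.1 on the log2 scale with pseudocounts of 1 and 0.1. The replicate number as a block and leaving out each library were also tried. The muscle marker covariate (mean log2 CPM of 14 markers) and leaving out the 9 libraries with over 1000 CPM of those markers were chosen after seeing the data. Marker lists covered skeletal muscle, adipocytes, brown adipocytes, endothelium, macrophages, progenitors and fibroblasts, lymphocytes, epithelium and erythroid cells. Among lymphocyte markers 1 of 6 was called lower in iWAT at 6 h and 0 at 24 h, where 10.1% of all genes were at either time. No erythroid marker was called in the cold. Shared sequence was counted as 50-base stretches of the GENCODE vM21 transcripts. Same-numbered libraries were not paired in the main tests. If iWAT and BAT of a number came from 1 mouse, the comparisons between depots leave that pairing out.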

Additional observations from a re-analysis of the deposited data

Results flagged for a closer look

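Of 108 groups of 5 libraries examined, 11 held a library apart from the other 4 by Dixon's criterion. Chance alone meets that criterion in about 1 in 20 groups. The groups were those of the members given in every library by the stated rule, so Hk1 and Pfkp were not examined. Some of these members were chosen by their called changes, so the rates do not compare like with like. In iWAT at 22 °C, replicate 2 stood apart for Pgam2 (30.1 CPM, the others 0.142 to 1.07), Eno3 (119 CPM, the others 9.89 to 11.2) and Pfkm (100.3 CPM, the others 22.2 to 28.0), the library with 4277 CPM of muscle markers. In BAT at 22 °C, Slc2a5 was low in replicate 2 (7.72 CPM, the others 19.7 to 25.8), Pgk1 high in replicate 5 (1199 CPM, the others 989 to 1043), Pgam1 low in replicate 4 (582 CPM, the others 618 to 629.5) and Ldhb low in replicate 3 (656 CPM, the others 711 to 729). In the cold BAT groups, Pfkfb3 was low in 6 h replicate 4 (1164 CPM, the others 1418 to 1449), Ldhb high in 6 h replicate 1 (991 CPM, the others 770.1 to 815) and Hk2 high in 24 h replicate 2 (689.5 CPM, the others 488 to 538). Fbp2 was high in 24 h replicate 5 of iWAT (5.90 CPM, the others 3.43 to 3.74).

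The response to 6 h of cold differed between BAT and iWAT, as BAT minus iWAT in log2 fold change, by 1.05 for Hk1, -0.69 for Pfkfb1, -0.80 for Pgam1, -0.95 for Eno1, -0.79 for Gpd1 and -1.08 for Gpd2. At 24 h the difference was -2.61 for Slc2a5, -0.86 for Pgk1, -0.77 for Pgam1, -1.26 for Slc16a1 and -1.19 for Gpd2. Each passed the test of the difference itself with all libraries. Leaving out the muscle-rich libraries leaves 1 BAT library at 22 °C, so that setting cannot decide whether these differences hold.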

How the results depend on the processing

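Of 343 results for single members or isoform ratios, 122 were called, 42 of them in every alternative, and 13 results reversed in some alternative. For iWAT at 6 h, where 3148 genes were called, limma on FPKM called 4899 (pseudocount 1) and 4783 (pseudocount 0.1), the muscle covariate 1615 and leaving out the muscle-rich libraries 1669. Each of these 4 called 10 members in place of 17. At 24 h in iWAT the last 2 called 9 and 10 members in place of 16. Between 24 h and 6 h in iWAT, 1 gene was called. DESeq2 called 122, FPKM 5 and 0, and the block, the covariate and leaving out the muscle-rich library 0. In BAT, leaving out the muscle-rich libraries, which leaves 1 library at 22 °C, called 123 genes and 0 members at 6 h, 153 and 1 at 24 h, and 123 and 1 between 24 h and 6 h. Between the depots it called 5851 genes, and for the difference in response 22 genes at 6 h, 5 at 24 h and 0 members at either. For that difference FPKM plus 1 called 2606 genes at 6 h and 1956 at 24 h, DESeq2 called 12 members at 6 h and 8 at 24 h, and FPKM 3 and 2 members at 6 h. Fewer samples enter where libraries are left out; the cause of the other shifts was not tested.

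With the muscle-rich libraries left out, the log2 value reversed for Pgam2 in iWAT at 6 h (0.00104, also without iWAT 22 °C replicate 2), Pfkm in iWAT at 24 h (0.29, also without that replicate, and 0.26 with the covariate). Leaving out each library gave -3.94 to 0.00104 for that Pgam2 value and -0.55 to 0.29 for that Pfkm value. In BAT the sign reversed for Slc2a5, Pfkfb4 and Slc16a3 at 6 h (0.50, 0.47 and 1.61), Pfkm and Slc16a3 at 24 h (0.22 and 1.12), Pgam2 and Eno3 between 24 h and 6 h (-2.04 and -1.33). It did so for Slc2a5 between the depots (-0.34), and Hk3 and Pgam2 in the difference in response at 24 h (-1.60 and -1.79). Pfkfb3 between the depots was -0.34 with either pseudocount on FPKM (adjusted p = 0.0463 and 0.0451). On FPKM plus 1 the median of all genes shifted by -0.34 between the depots, and called genes split 1966 higher and 9302 lower there (4570 and 4857 with the counts). The split was 1035 and 3128 in iWAT at 24 h (1757 and 1388), 1286 and 1581 in BAT at 6 h (1634 and 1333), 1143 and 524 in BAT between 24 h and 6 h (864 and 844). It was 2205 and 401 at 6 h and 1571 and 385 at 24 h for the difference in response (476 and 849, 417 and 683).

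Leaving out 1 library gave 1521 to 4035 genes and 10 to 19 members for iWAT at 6 h, 2052 to 3640 and 10 to 17 at 24 h, and 0 to 13 and 0 to 0 between them. It gave 2274 to 3215 and 6 to 12 for BAT at 6 h, 2468 to 2879 and 12 to 20 at 24 h, 1207 to 2228 and 7 to 12 between them. The ranges were 8876 to 9367 and 27 to 29 between the depots, and 862 to 2179 and 3 to 16 at 6 h and 702 to 1644 and 3 to 8 at 24 h for the difference in response. Same-numbered libraries share only a number: the correlation of their deviations from the group means was -0.534 to 0.458. With the replicate block, 2881 and 2959 genes and 15 and 15 members were called in iWAT at 6 h and 24 h. All of these members were higher, so the lower calls of Eno3 and Pgam2 were lost at both times. In BAT it called 3282 and 3442 genes and 8 and 19 members at these times and 2124 and 10 between them. It called 9643 and 29 between the depots, and 1571 and 9 at 6 h and 1241 and 5 at 24 h for the difference in response. For the ratios 5 pairs cannot go below 0.0625 in a sign-flip test. Depth limits Aldoc, which had at most 22 counts in any library.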

Other observations

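Genes around pyruvate and reducing equivalents differed between the depots at 22 °C. Among the other pathway genes, the mitochondrial pyruvate carrier genes were higher in BAT than in iWAT, Mpc1 by 1.40 ± 0.18 (adjusted p = 1.15e-07) and Mpc2 by 1.93 ± 0.19 (adjusted p = 4.22e-10). Got1 was higher by 3.33 ± 0.33 and Mdh1 by 0.87 ± 0.13 (adjusted p = 7.91e-10 and 9.71e-07). The monocarboxylate transporter gene Slc16a7 (MCT2), which fell in BAT in the cold, was lower in BAT than in iWAT at 22 °C, at 21.1 ± 4.45 CPM in BAT and 78.1 ± 3.98 CPM in iWAT (-1.89 ± 0.18, adjusted p = 3.48e-10). In these 43 genes, 22 were called higher and 9 lower of 38 tested between the depots (81.6%), where 66.9% of all genes were called (32.4% higher, 34.5% lower). The response to 6 h was lower in BAT than in iWAT for 12 of 38 and higher for 1, among them Mpc1 (-0.79 ± 0.25, adjusted p = 0.0451), Mpc2 (-0.95 ± 0.25, adjusted p = 0.0189) and Mdh1 (-0.62 ± 0.18, adjusted p = 0.029). Among the regulators, the difference at 6 h was also called for Mlxipl (-0.67 ± 0.17, adjusted p = 0.0126) and Akt2 (-0.45 ± 0.13, adjusted p = 0.0311). These are selected from 2 lists, where 9.4% of all genes tested were called in that comparison.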
